A study of Mus musculus with 6 samples.

Results

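The genes described here encode subunits of ligand-gated neurotransmitter receptors, the ion channels that open when acetylcholine, GABA, glycine, serotonin, glutamate or extracellular ATP binds to them. Members were taken as the protein-coding mouse genes whose symbols follow the naming of these families, and there were 68 of them among the 24421 genes of the count table. The families held 16 nicotinic acetylcholine, 19 GABA-A, 5 glycine, 2 5-HT3, 4 AMPA, 5 kainate, 7 NMDA and 7 P2X receptor subunit genes, and 3 genes with names of the delta glutamate receptor class. One of the last 3, Grid2ip, matches the naming but encodes a protein that interacts with the delta receptor and is no channel subunit.

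RNA-seq was done on germinal vesicle (GV) oocytes, which have finished growth and not yet resumed meiosis, in 2 genotypes of mice (n = 3 mice in each). One genotype, Ring1 -/-; Rnf2 f/f; Zp3-cre (DKO), lacked Ring1 and carried floxed Rnf2 alleles with a Cre transgene driven by the Zp3 promoter, which is active in growing oocytes. Its comparison group, Ring1 -/-; Rnf2 f/f (SKO), carried no Cre, so transgene and deletion cannot be told apart. Both genotypes therefore lacked Ring1, both came from females of about 3 months on a mixed FVB, 129/Sv and C57BL/6J background, and each library pooled 15 oocytes of a single mouse, freed of granulosa cells by pipetting. Ring1 and Rnf2 encode the E3 ubiquitin ligases of Polycomb repressive complex 1 (PRC1), and the comparison asks what the loss of Rnf2 during oocyte growth does to transcripts where Ring1 is already absent.

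As background, most of these receptors are pentamers (nicotinic, GABA-A, glycine and 5-HT3), while ionotropic glutamate receptors are tetramers and P2X receptors are trimers. Which subunits a cell makes decides which channels it can assemble, because some subunits form channels alone and others need a partner. The genes are best known from neurons and muscle, many of them are silent outside those tissues, and Polycomb complexes are known to hold genes of other lineages silent.

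Total counts per library ranged from 15521975 to 26652745, and 3 counts, taken as the floor of detection, corresponded to 0.116 to 0.171 CPM (counts per 1000000, on library sizes scaled with TMM). Rnf2 had 56.3, 30.7 and 22.9 CPM in the DKO libraries and 203, 180 and 187 CPM in the SKO libraries, a log2 fold change of -2.38 (SE 0.30, edgeR, adjusted p = 0.000349). Ring1, deleted in both, had 19 counts in all in DKO and 10 in SKO. All 12 oocyte markers were detected, with a summed level of 12587 to 17196 CPM in DKO and 22644 to 24231 CPM in SKO, led by Gdf9, Bmp15 and Padi6, and 7 of the 12 were lower in DKO. Over all genes tested, 17.3% were called higher and 7.41% lower, with a median log2 fold change of 0.04. Of 18 granulosa and cumulus markers (the most abundant being Nr5a2, Esr2 and Ptgs2), 16 were tested, 7 were higher and 1 lower (median 0.74), with sums of 403 to 444 CPM in DKO and 216 to 238 CPM in SKO. Foxl2, which defines granulosa cells, summed to 71 counts in DKO and 13 in SKO. It is 1 of the 18, named here although it is not among the 3 most abundant. Those 3 differed, with log2 fold changes of 4.52 for Ptgs2, 0.56 for Nr5a2 and 0.25 for Esr2. Esr2 was not called, and the higher call of Nr5a2 was lost under 6 alternative settings. Of 13 theca, stroma and endothelium markers (the most abundant being Pecam1, Tek and Kdr), 8 were tested, 4 were higher and 1 lower (median 1.78), with sums of 114 to 127 CPM in DKO and 116 to 157 CPM in SKO. Of 10 blood and immune markers (Cd68 and Itgam among the most abundant), 3 were tested and 1 was higher (median 0.28), with sums of 5.12 to 9.73 CPM in DKO and 2.30 to 4.75 CPM in SKO, and both haemoglobin genes at 0. Of 14 neuron and glia markers (the most abundant being Tubb3, Map2 and Mbp), 10 were tested and 6 were higher (median 1.86), with sums of 132 to 238 CPM in DKO and 150 to 173 CPM in SKO, while Stmn2 and S100b had 0 counts in all 6 libraries. Much of that sum came from Tubb3 and Map2, which were not called (log2 fold changes -0.07 and -0.17). Mbp was called higher, with a mean of 24.7 CPM in DKO and 10.6 CPM in SKO (log2 fold change 1.22, edgeR, adjusted p = 0.00644). The part of these other cell types in the receptor results was not tested, and in pooled oocytes fewer cells of a type and less RNA per cell cannot be told apart.

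Receptor subunit genes were mostly higher where they changed. Of the 68 members, 42 had enough counts to be tested, 17 were higher in DKO and 1 was lower (edgeR quasi-likelihood test, adjusted p under 0.05), against 17.3% of all 14845 genes tested called higher and 7.41% called lower. Among the 17 were Chrnb3, Chrna7 and Chrna5 among the nicotinic genes, Gabrq, Gabra5, Gabrp, Gabrg3 and Gabrr1 among the GABA-A genes, Glrb, Glra1 and Glra2 for glycine, Htr3b for serotonin, and Gria1, Grik2 and Grik3 for glutamate. The single fall was that of Chrng. No NMDA or P2X subunit gene was called in the main analysis. With library totals in place of TMM, all 17 remained higher and Chrng was no longer called, and the share of higher calls over all genes was 83% in place of 70%, with the median of all genes at 0.20 in place of 0.04.

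A gene that is near silent in SKO can reach the test only through its DKO counts, so the 42 are not a neutral sample of the family. When genes were admitted by their SKO counts alone (at least 10 over the 3 libraries), 40 members were tested, 13 were higher and 1 was lower, against 13.3% and 5.71% of all genes. Gria1, Gabrr1, Glra2 and Htr3b, called higher in the main analysis, were not among the 40. The median log2 fold change of these 40 was 0.83, beside 0.03 over all genes so tested. Split by SKO level, 5 of 16 members at 0.1 to 1 CPM were higher against 21.4% of all genes at that level. At 1 to 10 CPM the counts were 5 of 15 members against 19.1% of genes, and at 10 to 100 CPM 3 of 9 members against 8.91% of genes. These shares are given as a description, and with so few members in a range they are not tested.

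Of the members called higher, 9 had an SKO mean under 1 CPM. Those of the 9 with over 3 SKO counts had log2 fold changes from 2.88 (Glrb) to 7.25 (Chrnb3), and 8 had 1 CPM or more in SKO, among them Gabrp at 0.81 and Gabrg3 at 2.03. In DKO, 8 of the 17 had a mean over 10 CPM. In 21 of the 42 tested members every DKO library lay above every SKO library, against 24.7% of all genes tested. In 4 every DKO library lay below, against 19.7%. Of the 42, Gria1, Gabrr1, Glra2, Htr3b and Chrnb2 reached the test only through their DKO counts, and all 5 are among the 21. For these 5 that order was nearly set by how they entered, so the 21 are a description only.

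**Figure D1:**
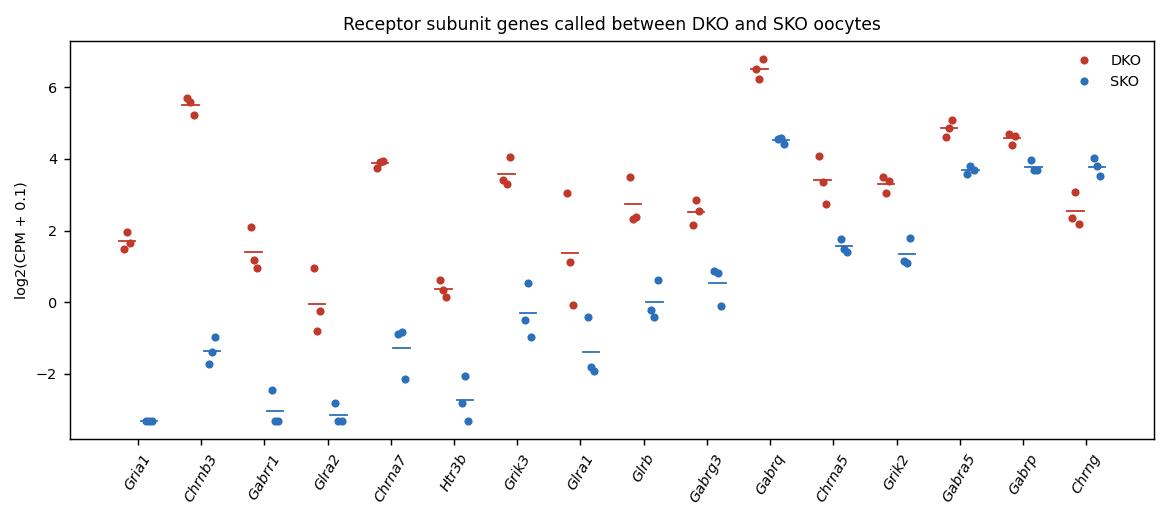
Level of 16 of the called receptor subunit genes in every library, as log2(CPM + 0.1) on the y axis, with DKO libraries in red and SKO libraries in blue and a line at the mean of 3 mice. The groups do not overlap for any of the 16, and the genes are ordered from the largest to the smallest fitted fold change, with Chrng, the only one lower in DKO, at the right end.

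**Figure D2:**
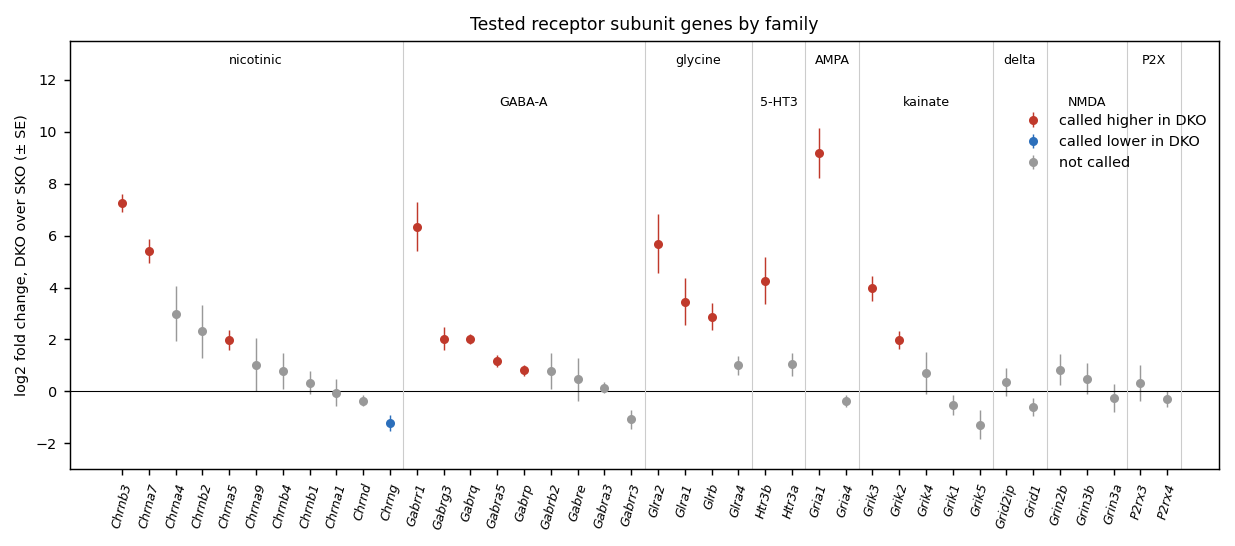
Log2 fold change of DKO over SKO with its standard error (y axis) for 40 of the tested members (x axis), grouped by receptor family, in red where called higher, blue where called lower and grey where not called. Rises are drawn in the nicotinic, GABA-A, glycine, 5-HT3, AMPA and kainate families, and the fitted values of Gria1, Gabrr1 and Glra2 depend on the prior count because these genes had 0, 2 and 1 SKO counts.

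Of 11 tested nicotinic acetylcholine receptor genes, 3 were higher and 1 was lower, beside 17.3% and 7.41% of all genes. Of the 10 that also passed on SKO counts alone, 3 were higher and 1 was lower. The smallest adjusted p of all members was that of Chrnb3. Chrnb3, which encodes an accessory beta subunit of neuronal receptors (chromosome 8, 27368711 to 27399730, GRCm38), had 51.6, 48.5 and 37.8 CPM in the DKO libraries, against 0.201, 0.276 and 0.411 CPM in the SKO libraries. It was close to the floor of detection in every SKO library and well counted in every DKO library, with 2914 counts in all in DKO and 21 in SKO. The means were 46.0 ± 7.27 CPM for DKO and 0.296 ± 0.106 CPM for SKO (SD, n = 3 mice, as for every ± here), a log2 fold change of 7.25 (SE 0.34, edgeR, adjusted p = 1.35e-06). Chrna7, whose product forms calcium-permeable channels without a partner (chromosome 7, 63098692 to 63212526), had 13.4, 15.1 and 15.4 CPM in DKO and 0.443, 0.460 and 0.123 CPM in SKO. The 3 DKO libraries agreed closely here, at 14.6 ± 1.04 CPM against 0.342 ± 0.190 CPM in SKO, and the log2 fold change was 5.40 (SE 0.47, edgeR, adjusted p = 3.28e-05).

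Chrna5, an accessory alpha subunit that joins other alpha and beta subunits, had 17, 10.1 and 6.63 CPM in DKO and 3.30, 2.72 and 2.55 CPM in SKO. The DKO libraries spread more than the SKO libraries but stayed above them, with a log2 fold change of 1.98 (SE 0.40, edgeR, adjusted p = 0.00514). The usual partners of these subunits were scarce. Chrna6, with which Chrnb3 assembles in midbrain and retina, had 0 counts in all 6 libraries. Chrna3 had at most 14 counts in a library and was not tested. Chrnb2, which joins Chrna4 in the commonest brain receptor, measured 0.595 ± 0.189 CPM in DKO, against 0.121 ± 0.176 CPM in SKO and was not called (edgeR, adjusted p = 0.129, and called without SKO replicate 2), and it shares 1365 exon bases with Adar on the opposite strand. Chrna4 itself measured 2.16, 3.33 and 0.660 CPM in DKO and 0, 0.0921 and 0.657 CPM in SKO, with a log2 fold change of 3.00 (SE 1.07, edgeR, adjusted p = 0.0656). Chrna4 was called higher by DESeq2, with no filter, and without DKO replicate 3 or SKO replicate 3.

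Among the muscle-type subunits, Chrng was called lower and the others were not called or not tested. Chrng, the gamma subunit that is used in fetal muscle, had 5.01, 8.26 and 4.46 CPM in DKO and 16.1, 13.8 and 11.4 CPM in SKO, and fell by 1.22 on the log2 scale (SE 0.32, edgeR, adjusted p = 0.021). Its call was lost without DKO replicate 1 (adjusted p = 0.0572, edgeR), without SKO replicate 1 (0.0817) or 2 (0.0625), and with library totals alone (0.0503). Chrnd, the delta subunit, was the most abundant of all 68 members per kilobase of gene length in SKO, at 20.9 ± 1.29 CPM per kilobase, against 16.4 ± 4.31 in DKO. It had 38.6, 48.4 and 64.9 CPM in DKO and 67.3, 60.2 and 66.9 CPM in SKO, so the ranges overlapped, and it was not called (log2 fold change -0.35, SE 0.21, edgeR, adjusted p = 0.258). Without DKO replicate 3 it was called lower, at -0.58 (edgeR, adjusted p = 0.0437). Chrnb1 and Chrna1, which complete the muscle receptor, measured 5.04 ± 2.5 and 1.61 ± 0.62 CPM in DKO and 4.0 ± 0.799 and 1.66 ± 0.533 CPM in SKO, and neither was called. Chrne, the adult muscle subunit, had at most 18 counts in a library. Rapsn, which clusters muscle receptors, was lower in DKO, at 1.53 ± 0.688 CPM against 5.19 ± 1.24 CPM in SKO (log2 fold change -1.75, SE 0.47, edgeR, adjusted p = 0.022). The call of Rapsn, a gene named after its values were seen, was lost without SKO replicate 1 or 3. Among the 38 tested scaffold and synapse organiser genes, which include Rapsn, 14 were higher and 4 lower.

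These changes left a different mix of nicotinic subunit transcripts. Per kilobase, Chrnd held 39.9 ± 8.58% of the summed nicotinic level in DKO and 70.6 ± 3.73% in SKO. Here and in the families below, the shares of a family are tied, so a share also falls where other genes rise. The level of Chrnd itself was not called. Chrnb3 held 17.8 ± 3.81% in DKO and 0.158 ± 0.061% in SKO, and Chrna7 held 17.1 ± 0.212% in DKO and 0.549 ± 0.302% in SKO. Chrng held 4.81 ± 1.51% in DKO and 15.4 ± 2.11% in SKO. The sum over the 16 genes was 37.5 to 42.5 CPM per kilobase in DKO and 28.8 to 31.2 CPM per kilobase in SKO.

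GABA-A receptor genes rose in 6 of 10 tested members, beside 17.3% of all genes, and in 5 of the 9 that also passed on SKO counts alone. Their summed level per kilobase was the highest of the families. Gabrq, the theta subunit (chromosome X, 72825163 to 72842607), had 91.0, 75.5 and 111 CPM in DKO and 23.6, 24.1 and 21.1 CPM in SKO. It was the most abundant of all 68 members per kilobase in DKO, at 17.3 ± 3.36 CPM per kilobase, against 4.29 ± 0.30 in SKO, where it came sixth. Its log2 fold change was 2.01 (SE 0.20, edgeR, adjusted p = 8.83e-05). In DKO the step down to Chrnd, the next in order, was smaller than the spread of either gene.

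Gabra5 and Gabrg3, neighbours on chromosome 7, both rose. Gabra5, whose subunit is known from extrasynaptic receptors of the hippocampus, had 24.2, 29.2 and 33.8 CPM in DKO and 11.7, 14 and 12.8 CPM in SKO (log2 fold change 1.18, SE 0.23, edgeR, adjusted p = 0.00435). Gabrg3, a gamma subunit, had 4.38, 7.09 and 5.78 CPM in DKO and 1.73, 1.66 and 0.822 CPM in SKO (log2 fold change 2.03, SE 0.44, edgeR, adjusted p = 0.00752). No DKO library reached down to an SKO library for either gene.

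Gabrp, the pi subunit known from reproductive and other peripheral tissues, had 25.8, 20.9 and 24.9 CPM in DKO and 15.5, 12.7 and 12.8 CPM in SKO, a log2 fold change of 0.81 (SE 0.23, edgeR, adjusted p = 0.0269). The call was lost without DKO replicate 1 or any single SKO replicate, with adjusted p from 0.0529 to 0.117 (edgeR). Gabrr1, a rho subunit that forms channels without a partner, had 4.21, 2.16 and 1.82 CPM in DKO, and 2 counts in all over the SKO libraries, both in replicate 1. Its ratio was 91.6 with an exact 95% interval of 25 to 762, which covers counting error only (edgeR, adjusted p = 0.00101). Without SKO replicate 1 no SKO count was left and the fitted log2 fold change, which depends on the prior count, was 8.90 in place of 6.35.

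Gabrr3, the third rho subunit gene, went the other way without being called. It had 11.1, 10.4 and 4.89 CPM in DKO and 23.9, 13.3 and 18.2 CPM in SKO, so the groups did not overlap, and the log2 fold change was -1.07 (SE 0.36, edgeR, adjusted p = 0.0534). The adjusted p ranged from 0.014 to 0.176 over the alternatives, and the gene was called lower by DESeq2, with RLE size factors, with no filter and with the replicate block. Gabra3, an alpha subunit, was as abundant in both genotypes to within its spread, at 32.8 ± 6.23 CPM in DKO, against 29.9 ± 1.96 CPM in SKO (log2 fold change 0.13, SE 0.21, edgeR, adjusted p = 0.682). Gabrb2 and Gabre were low and not called. Gabra6, Gabrd and Gabrg1 had 0 counts in all 6 libraries, which allows at most 0.116 to 0.171 CPM in a library.

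Per kilobase, Gabrq held 30.2 ± 4.71% of the summed GABA-A level in DKO and 12.3 ± 1.51% in SKO, and Gabrr3 held 10.7 ± 4.35% in DKO and 35.7 ± 6.76% in SKO. Gabrp kept a like share, 12.7 ± 0.987% in DKO and 11.9 ± 0.209% in SKO. The sum over the 19 genes was 54.5 to 59.1 CPM per kilobase in DKO and 32.2 to 39.6 CPM per kilobase in SKO.

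**Figure D3:**
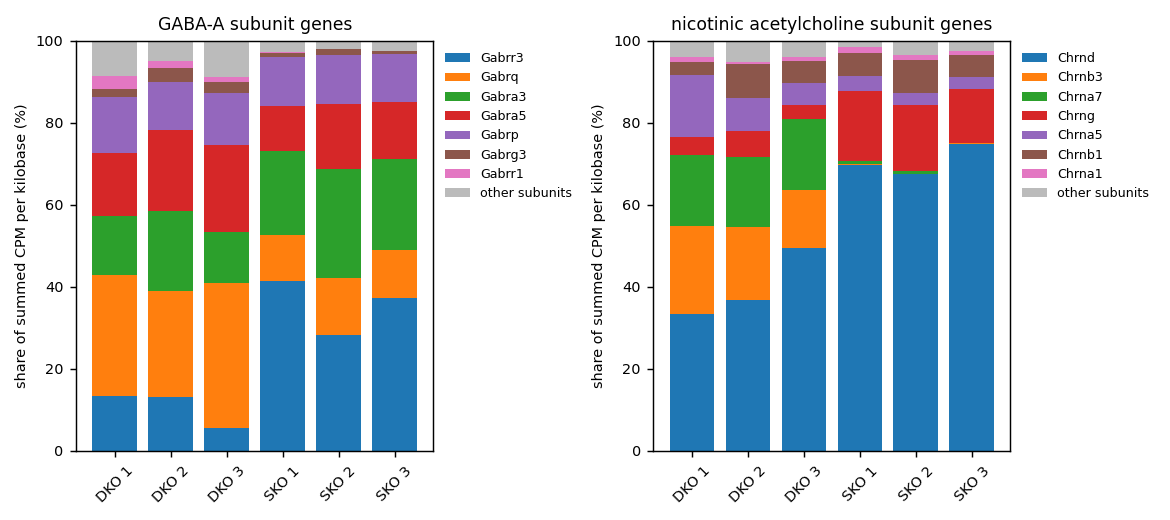
Share of each subunit gene in the summed CPM per kilobase of its family (y axis, %) in each library (x axis), for the GABA-A genes on the left and the nicotinic genes on the right, with 7 genes drawn in colour and the rest in grey. Gabrr3 and Chrnd take smaller shares in the DKO libraries than in the SKO libraries, and Gabrq, Chrnb3 and Chrna7 take larger ones. A share also falls where other genes of the family rise, and neither Gabrr3 nor Chrnd was called in level.

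Glycine receptor genes rose in 3 of 4 tested members, beside 17.3% of all genes, and in 2 of the 3 that also passed on SKO counts alone. Glrb, the beta subunit that ties the receptor to the scaffold gephyrin, had 11.1, 4.93 and 5.08 CPM in DKO and 0.764, 0.645 and 1.44 CPM in SKO (log2 fold change 2.88, SE 0.51, edgeR, adjusted p = 0.00261). Glra2, the alpha subunit of embryonic receptors, had 1.82, 0.469 and 0.737 CPM in DKO and a single count over the SKO libraries, a ratio of 66.9 with an exact 95% interval of 11.6 to 2685 (edgeR, adjusted p = 0.00495). Its fitted log2 fold change of 5.69 was 4.98 without DKO replicate 1 and 7.46 without SKO replicate 1. Glra1, the alpha subunit of adult spinal cord receptors, had 8.25, 2.06 and 0.854 CPM in DKO and 0.644, 0.184 and 0.164 CPM in SKO. The groups did not overlap, but DKO replicate 1 stood well above the other two, and the log2 fold change of 3.45 (SE 0.91, edgeR, adjusted p = 0.0201) was 2.11 without it (adjusted p = 0.122). The call of Glra1 was also lost without SKO replicate 2 (adjusted p = 0.0653) or 3 (0.0704), and without SKO replicate 1 its log2 fold change was 4.34 (edgeR).

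Glra4 was the most abundant glycine subunit gene per kilobase in both genotypes, at 4.43 ± 1.22 CPM per kilobase in DKO and 2.22 ± 0.525 in SKO. Its libraries did not overlap, at 5.57, 9.24 and 6.32 CPM in DKO and 3.66, 4.28 and 2.63 CPM in SKO, and it missed the threshold (log2 fold change 1.0, SE 0.36, edgeR, adjusted p = 0.0706). It was called higher by DESeq2 (adjusted p = 0.0325) and with library totals alone (edgeR, 0.0499). Glra3 had at most 3 counts in a library.

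Of the 5-HT3 genes, which encode the only serotonin receptors that are ion channels, Htr3b was higher. It had 1.42, 1.17 and 1.01 CPM in DKO and 0.0402, 0.138 and 0 CPM in SKO, a log2 fold change of 4.26 (SE 0.90, edgeR, adjusted p = 0.00684). With 4 SKO counts the value rests on few reads, and it was 5.54 without SKO replicate 2. Htr3b needs Htr3a to form a channel. Htr3a had 3.47, 3.00 and 2.02 CPM in DKO and 1.53, 1.15 and 1.44 CPM in SKO, without overlap, and was not called (log2 fold change 1.04, SE 0.45, edgeR, adjusted p = 0.123).

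Among AMPA subunits, which carry fast excitatory transmission, Gria1 (chromosome 11, 57011571 to 57330244) had 2.67, 3.80 and 3.07 CPM in DKO and 0 counts in every SKO library. Set against the floor of 3 counts over the SKO libraries together, it was at least 75.7-fold higher (edgeR, adjusted p = 0.000332). Gria4 was the most abundant AMPA gene per kilobase, with 12.5, 14.2 and 16.5 CPM in DKO and 19.3, 19.7 and 17.2 CPM in SKO, and was not called (log2 fold change -0.38, SE 0.23, edgeR, adjusted p = 0.266). Gria2, whose subunit makes the channel impermeable to calcium, had at most 3 counts in a library, and Gria3 had at most 6.

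Of the 5 kainate subunit genes, all tested, 2 were called higher, beside 17.3% of all genes. All 5 also passed on SKO counts alone. Grik3 had 10.6, 9.76 and 16.4 CPM in DKO and 0.603, 1.34 and 0.411 CPM in SKO, a log2 fold change of 3.97 (SE 0.49, edgeR, adjusted p = 0.000311), which was 4.57 without SKO replicate 2. Grik2 had 11.1, 8.12 and 10.4 CPM in DKO and 2.13, 2.03 and 3.37 CPM in SKO (1.97, SE 0.35, adjusted p = 0.0027). Both can form channels alone, and both separated the genotypes in every library. Grik1, of the same low-affinity class, had 2.16, 2.63 and 3.38 CPM in DKO and 3.82, 4.47 and 3.37 CPM in SKO and was not called (edgeR, adjusted p = 0.367). Grik5, a high-affinity subunit that needs a partner, had 0.739, 0.516 and 0.427 CPM in DKO and 1.73, 1.01 and 1.31 CPM in SKO, without overlap and without a call (log2 fold change -1.27, SE 0.57, edgeR, adjusted p = 0.134). Grik4 was not called. Per kilobase, Grik3 held 34.9 ± 6.43% of the summed kainate level in DKO and 5.52 ± 3.55% in SKO, and Grik1 held 10.9 ± 1.98% in DKO and 37.9 ± 6.35% in SKO.

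Grid1, the most abundant delta receptor gene per kilobase, had 7.24 ± 2.33 CPM in DKO and 11.1 ± 3.32 CPM in SKO and was not called (log2 fold change -0.61, SE 0.36, edgeR, adjusted p = 0.243).

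NMDA receptors need the subunit encoded by Grin1, which had 0 counts in all 6 libraries, as did Grin1os, the gene that shares 1307 exon bases with it on the opposite strand. Nothing in the sources says how such shared bases were counted. Grin2b was the most abundant per kilobase of the family, with 3.24, 3.75 and 1.44 CPM in DKO and 0.724, 2.72 and 1.27 CPM in SKO, and was not called (log2 fold change 0.84, SE 0.59, edgeR, adjusted p = 0.335). Grin3a and Grin3b were low and not called, and Grin3b shares 1059 exon bases with Tmem259. Among the P2X genes, which encode ATP-gated cation channels, P2rx4 led with 5.53 ± 0.721 CPM in DKO and 6.78 ± 1.45 CPM in SKO and was not called (log2 fold change -0.29, SE 0.32, edgeR, adjusted p = 0.544). P2rx3 was tested and not called, and the other 5 were below the filter.

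Many of these genes lie side by side, and 33 of the 68 members fall into 13 groups with less than 1000000 bases between neighbours. On chromosome 7, Gabrg3 and Gabra5 both rose, with 20454 bases between them. On chromosome 9, Htr3a and Htr3b lie 23856 bases apart, and in both every DKO library lay above every SKO library, with Htr3b alone called. On chromosome 8, Chrnb3 and Chrna6 lie 3482 bases apart, and Chrna6 had 0 counts throughout. On chromosome X, Gabrq lies 168244 bases from Gabra3, which was not called, and Gabre, the third gene there, was not called either. In another group on chromosome 9, Chrna5 was called and its neighbours Chrna3 (not tested) and Chrnb4 (edgeR, adjusted p = 0.453) were not, and the spans of Chrna5 and Chrna3 overlap by 1304 bases. On chromosome 4, Gabrr2 lies 36691 bases from Gabrr1 and had 3 counts in all. On chromosome 1, Chrnd lies 5741 bases from Chrng. Differences in response between neighbours were not tested.

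**Figure D4:**
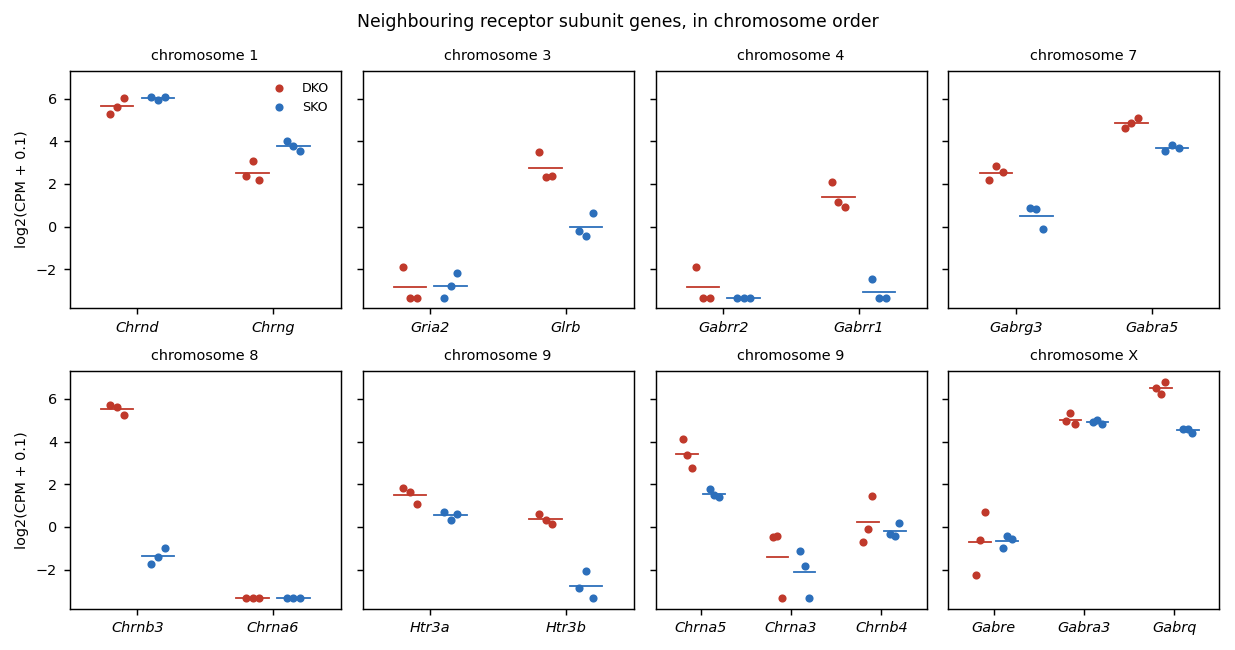
Level in every library, as log2(CPM + 0.1), of members in the 8 groups of neighbouring genes that hold a called gene, in chromosome order along the x axis of each panel, with DKO libraries in red, SKO libraries in blue and a line at each mean. Gabrg3 and Gabra5 on chromosome 7 are both higher in DKO, while Chrna6, Gabrr2 and Gria2 sit at or near 0 counts in both genotypes beside a gene that rose.

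Promoter windows of 300 bases (250 before to 50 after the annotated start, RefSeq, GRCm38.p6) were at hand for 47 of the 68 members (69.1%), and for 13 of the 18 called ones, too few for a comparison of base composition over the set. The windows of 5 genes are shown to let the sequences behind the values be read, 3 that rose (Chrna7, Grik3 and Gabrq), the uncalled neighbour of the last (Gabra3, the first listed of its 2 windows) and the one that fell (Chrng). Capitals mark each CG dinucleotide, which reads the same on both strands, and each sequence runs 5′ to 3′ on the gene's own strand. They lie at chr7:63212477-63212776 (minus strand), chr4:125490446-125490745 (plus), chrX:72824928-72825227 (plus), chrX:72656870-72657169 (minus) and chr1:87205561-87205860 (plus).
Chrna7: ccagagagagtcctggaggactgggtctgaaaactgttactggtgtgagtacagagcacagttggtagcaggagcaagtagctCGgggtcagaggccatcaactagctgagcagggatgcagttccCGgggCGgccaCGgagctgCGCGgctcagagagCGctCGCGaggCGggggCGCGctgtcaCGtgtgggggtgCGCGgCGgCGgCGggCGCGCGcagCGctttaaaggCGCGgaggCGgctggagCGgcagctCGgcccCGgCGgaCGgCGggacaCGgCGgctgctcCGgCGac
Grik3: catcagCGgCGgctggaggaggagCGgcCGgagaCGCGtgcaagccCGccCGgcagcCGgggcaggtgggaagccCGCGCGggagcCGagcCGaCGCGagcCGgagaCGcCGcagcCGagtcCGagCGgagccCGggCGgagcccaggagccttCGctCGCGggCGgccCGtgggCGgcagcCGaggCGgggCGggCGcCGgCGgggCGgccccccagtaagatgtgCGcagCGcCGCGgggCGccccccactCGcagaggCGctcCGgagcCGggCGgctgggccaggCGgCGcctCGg
Gabrq: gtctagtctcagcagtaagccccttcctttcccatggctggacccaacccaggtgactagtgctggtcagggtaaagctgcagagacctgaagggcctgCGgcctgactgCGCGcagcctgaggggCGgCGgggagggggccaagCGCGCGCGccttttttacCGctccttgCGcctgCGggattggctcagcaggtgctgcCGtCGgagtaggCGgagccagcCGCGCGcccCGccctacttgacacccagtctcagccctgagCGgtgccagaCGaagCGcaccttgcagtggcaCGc
Gabra3: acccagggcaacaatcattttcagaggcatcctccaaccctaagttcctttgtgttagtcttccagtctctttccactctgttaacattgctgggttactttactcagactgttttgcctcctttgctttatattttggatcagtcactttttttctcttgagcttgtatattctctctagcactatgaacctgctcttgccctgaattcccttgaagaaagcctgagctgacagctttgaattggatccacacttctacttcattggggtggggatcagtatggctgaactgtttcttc
Chrng: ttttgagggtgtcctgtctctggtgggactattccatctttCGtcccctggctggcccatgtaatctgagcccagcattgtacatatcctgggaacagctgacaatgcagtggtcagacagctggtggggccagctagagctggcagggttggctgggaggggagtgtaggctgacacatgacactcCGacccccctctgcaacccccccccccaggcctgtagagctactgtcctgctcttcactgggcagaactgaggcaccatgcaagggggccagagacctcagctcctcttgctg
Chrna7 held 35 CG dinucleotides, a number reached by 6.95% of all 32851 windows, Grik3 held 50 (0.855%) and Gabrq held 23 (21.5%). Chrng held 2 (85.9% of windows hold at least as many) and Gabra3 held 0. The median over all windows was 7. Among other called members the number ran from 2 in Htr3b to 30 in Glrb, with 4 in Gabrp and 13 in both Gabra5 and Gabrg3. Grik4, with 42, was not called. Whether the number goes with the calls was not tested, and the 5 windows shown were picked by hand.

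Genes that work with these receptors were described from 5 lists, whose counts stand beside 17.3% higher, 7.41% lower and a median of 0.04 over all genes tested. As for the receptors, a gene near silent in SKO could enter these counts only through DKO. Of 38 tested scaffold and synapse organiser genes, 14 were higher and 4 lower (median log2 fold change 0.55). Nptxr, a receptor for neuronal pentraxins that gather AMPA receptors, measured 47.3 ± 4.36 CPM in DKO, against 3.55 ± 1.24 CPM in SKO (log2 fold change 3.74). Lrrtm1, an adhesion protein of excitatory synapses, averaged 17.3 ± 4.91 CPM in DKO, against 1.19 ± 0.211 CPM in SKO (3.85). Of 25 tested auxiliary subunits and assembly chaperones, 9 were higher and 2 lower (median 0.23). Gabarapl1, a homologue of the GABA-A receptor-associated protein, measured 42.6 ± 2.14 CPM in DKO, against 0.905 ± 0.297 CPM in SKO (5.54). The AMPA receptor auxiliary gene Shisa9 measured 25.9 ± 3.60 CPM in DKO, against 5.70 ± 1.45 CPM in SKO (2.18), and the kainate receptor auxiliary gene Neto2 35.1 ± 8.58 CPM in DKO and 9.04 ± 2.20 CPM in SKO (1.96).

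Metabotropic receptors for the same transmitters, which signal through G proteins, were higher in 6 of 18 tested genes and lower in 1 (median 0.80). Grm2, a glutamate receptor, was the one that fell, at 49.7 ± 21.2 CPM in DKO, against 161 ± 25.8 CPM in SKO (log2 fold change -1.69), and Gabbr2, a GABA-B subunit, had 0 SKO counts and 2.07 ± 0.707 CPM in DKO. Htr1b, a serotonin receptor, had 1.54 ± 0.0988 CPM in DKO and 2 counts over the SKO libraries. Of 28 tested genes of transmitter synthesis, transport and removal, 12 were higher and 2 lower (median 1.51). Gad2, which makes GABA, measured 38.0 ± 15.4 CPM in DKO, against 4.84 ± 1.17 CPM in SKO (2.98), and Nt5e, which makes adenosine outside the cell, 4.03 ± 1.63 CPM in DKO and 0.168 ± 0.0317 CPM in SKO (4.54). Slc1a2, a glutamate transporter gene, had 38.7 ± 16.4 CPM in DKO and 2 counts over the SKO libraries. Of 12 tested sodium and chloride gradient transporters, 6 were higher and 0 lower (median 0.78), led by Atp1b1, a subunit of the sodium pump, at 121 ± 23.9 CPM in DKO, against 55.6 ± 12.2 CPM in SKO (1.13). All named list genes were called (edgeR, adjusted p under 0.05).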

How the data were processed

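The authors deposited raw counts, in 1 file with a row for each Entrez gene, a length in bases and 6 columns named by sample title. Per the labels' protocols, RNA of 15 GV oocytes of a single mouse was amplified with the Ovation kit, so reads are not independent molecules, and intervals and floors cover counting error only. The submitters' processing notes name STAR 2.5.0a, GRCm38 and mm10. No source used here states the read counter, its annotation or its use of strand, so reads of overlapping or antisense genes cannot be told apart. Every sample is labelled as a re-analysis of an earlier deposit.

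Of 24421 identifiers, 24387 matched the RefSeq annotation of GRCm38.p6, and exon overlaps were taken from GENCODE M21. In R 4.3.3 with edgeR 4.0.16, 14845 genes passed filterByExpr (counts of at least 10, total of at least 15), TMM set the scaling, and the two-sided quasi-likelihood test was adjusted with Benjamini-Hochberg over all genes tested. Every fold change is DKO over SKO, and its standard error comes from the F statistic and is too small at few counts. Alternatives were RLE size factors, library totals, DESeq2 1.42.0, 3 other filters, leaving out each library and a replicate block. The code was tested on simulated counts.

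Members and lists were chosen with earlier results of these data known. Named were Rnf2, Ring1, every called member, the member of each family with the most CPM per kilobase, in each list the 3 called genes lowest in adjusted p, and the 3 most abundant markers of each marker list. Some genes that this rule names are not reported here. Other genes named are marked as such or complete a family.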

Additional observations from a re-analysis of the deposited data

How the results depend on the processing

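The count of members called higher was 17 in the main analysis and stayed within 1.5 times of it under the 13 alternatives. Chrna5, Chrna7, Chrnb3, Gabra5, Gabrg3, Gabrq, Glrb, Grik2 and Grik3 were called under all 13. Gria1, Gabrr1, Glra2 and Htr3b were called wherever they were tested, but they reached the test only through their DKO counts. With genes admitted by SKO counts alone, none of these was tested, so that setting gives no check of their calls. The count of members called lower was 1. It was 2 with RLE size factors, 2 with DESeq2, 2 with no filter, 2 with the replicate block and 0 with library totals alone, and 0 to 2 when single libraries were left out. Over all genes, 1100 were called lower, 596 with library totals alone and 434 to 1501 without single libraries. The median log2 fold change of tested members was 0.92, and 0.91 to 1.21 without single libraries. Among uncalled markers, Tubb3 (-0.07) was at 0.12 with library totals alone and at -0.66 to 0.30 without single libraries, Map2 (-0.17) at -0.31 to 0.017 and Cd68 (0.28) at -0.50 to 0.71 without single libraries. The cause of these shifts was not tested.

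Replicate numbers come from the titles, and nothing says that they pair mice. Same-numbered DKO and SKO libraries deviated from their group means with correlations of 0.139, 0.077 and 0.048 across genes. Of 6 libraries, 6 correlated best with their own number, a weak hint from the data only. These matches are read from one set of correlations between deviations tied within each group, so they are not 6 separate agreements. With the replicate block 2651 genes were called higher and 1364 lower, and the 17 members remained higher.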

Other observations

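Of the 26 members below the filter, 6 had 0 counts in all libraries (Chrna6, Gabra6, Gabrd, Gabrg1, Grin1 and P2rx6). In 6 untested members every DKO library lay above every SKO library, among them Chrna2, Gabra4, Grin2a and P2rx1. The share over all untested genes was not taken. With so few SKO counts these members could hardly lie below, so the number is a description only. With no filter on counts, Chrna2 and P2rx1 were called higher by edgeR. P2rx1 was also called higher without DKO replicate 3 and without SKO replicate 1 or 2, and Grin2a without DKO replicate 3. P2rx1, which encodes an ATP-gated channel of platelets and smooth muscle, had 49, 33 and 5 counts in DKO and 0, 2 and 0 in SKO, and was thus lowest among the DKO libraries in replicate 3. Of the untested members with counts, 17 had at most 23 in any library, among them Chrna2 (4, 23 and 7 counts in DKO, 0 in each SKO library) and Grin2a (7, 10 and 1 in DKO, 0 in each SKO library).

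Summed over all 68 members, the level was 122, 122 and 123 CPM per kilobase for DKO and 85.8, 76.3 and 77.8 CPM per kilobase for SKO. Single subunits varied far more between DKO libraries than the sum did. Chrna5, for example, had 10.1 CPM in DKO replicate 2 and 17 CPM in DKO replicate 1. In SKO the sum itself spread more, at 80.0 ± 5.12 CPM per kilobase, beside 122 ± 0.886 in DKO. The sum includes the genes that rose, so its order is in part that of the calls.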
